A study of Homo sapiens with 9 samples.

Results

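The genes described are YAP1, WWTR1, TEAD1, TEAD2, TEAD4, CCN1, CCN2, ANKRD1, AMOTL2 and AMOT. They are 10 of the 60708 genes listed in the count files, and each matched 1 gene identifier. They were chosen by name as factors and targets of the YAP/TEAD pathway, with earlier results of these data known. The libraries were labelled as MDA-MB-231, an established human breast cancer line of the triple-negative, mesenchymal type, grown in DMEM with fetal bovine serum and left untreated. The 3 libraries labelled WT carry the parental genotype. The 3 libraries labelled CS16 and the 3 labelled CS19 each come from 1 clone, grown from a single cell after transfection with CRISPR/Cas9 and HDR plasmids against SNAI1 and selection with puromycin. SNAI1 encodes a zinc finger repressor that drives epithelial-mesenchymal transition. The clones together form the SNAI1-KO group of 6 libraries, and loss of SNAI1 cannot be told apart from anything else that set the founding cells, the transfection or the selection apart from WT. No label says whether the 3 libraries of a group came from separate cultures, so p-values measure the spread between these libraries, which may be technical. The SNAI1-KO group was fitted as 6 separate libraries, 3 of each clone, so its p-values do not take the clone as the unit.

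The libraries held between 19527195 and 28627777 read pairs counted on genes. Counts of SNAI1 were 16, 38 and 21 in WT, 26, 40 and 49 in CS16, and 57, 94 and 94 in CS19, so they were not lower in the clones, and gene counts do not resolve the edited sequence. Defining markers of the line went against the label in all 6 clone libraries, and whether the libraries labelled CS16 and CS19 derive from it was not tested. Summed over 8 markers of MDA-MB-231, the level ran from 5105 to 6485 CPM (counts scaled to library size) in WT, from 546.7 to 568.2 in CS16 and from 517 to 555 in CS19, and CD44 had 0 counts in CS16 and 2 in CS19. CDKN2A, CDKN2B and MTAP of 9p21, a region this line is known to have lost, had 0 counts in WT and a summed level of 164 to 182 CPM in the clones. A list of 9 mammary luminal markers summed to 1457 to 2137 CPM in WT, 70.8 to 72.8 in CS16 and 101 to 119 in CS19, with KRT19 at 0 in CS16. These markers separated the clones from WT in the same way as the genes below, and their part in the results was not tested. Among replicates, WT-2 stood apart. The chi-square statistic per degree of freedom over genes was 188 and 230.2 for WT-2 against WT-1 and WT-3, and between 4.78 and 18.1 for all other pairs of replicates. Values of SNAI1-KO against WT whose outcome changed without WT-2 are therefore given both ways, in a fit where 67% of 20293 genes passed the test.

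YAP1 and its paralogue TAZ, encoded by WWTR1, are transcriptional coactivators at the end of the Hippo pathway. When the kinases of that pathway are active, YAP and TAZ are phosphorylated and held in the cytoplasm, and when the kinases are idle they enter the nucleus, bind DNA through TEAD factors and switch on target genes such as CCN1, CCN2 and ANKRD1. The angiomotins, AMOT, AMOTL1 and AMOTL2, bind YAP and hold it at junctions and in the cytoplasm, and AMOTL2 is itself a target. In mammary cells a high output of this pathway is known to accompany spread cells, stiff matrix and mesenchymal character.

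TEAD factors bind the letters GGAATG, or CATTCC when read on the other strand. The 250 bases before the annotated start are shown for CCN2 and ANKRD1, the targets with more than 1 copy of these letters, for YAP1, a factor with 1 copy, and for AMOT, the only gene of the 10 called higher in the clones. Capitals mark GGAATG. Sequences are from RefSeq on GRCh38.p14 and read 5′ to 3′ on the strand of the gene. The windows are chr6:131951373-131951622 (minus strand) for CCN2, chr10:90921088-90921337 (minus strand) for ANKRD1, chr11:102110197-102110446 (plus strand) for YAP1 and chrX:112840832-112841081 (minus strand) for AMOT.
CCN2: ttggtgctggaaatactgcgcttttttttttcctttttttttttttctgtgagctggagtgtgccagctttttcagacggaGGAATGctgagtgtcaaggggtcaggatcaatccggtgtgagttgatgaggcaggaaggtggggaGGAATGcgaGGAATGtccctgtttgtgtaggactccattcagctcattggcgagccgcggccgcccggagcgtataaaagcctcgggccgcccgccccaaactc
ANKRD1: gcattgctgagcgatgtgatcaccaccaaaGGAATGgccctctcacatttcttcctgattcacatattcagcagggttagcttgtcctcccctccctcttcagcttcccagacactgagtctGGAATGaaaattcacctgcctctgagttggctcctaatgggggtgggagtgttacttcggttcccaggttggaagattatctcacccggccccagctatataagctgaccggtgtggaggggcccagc
YAP1: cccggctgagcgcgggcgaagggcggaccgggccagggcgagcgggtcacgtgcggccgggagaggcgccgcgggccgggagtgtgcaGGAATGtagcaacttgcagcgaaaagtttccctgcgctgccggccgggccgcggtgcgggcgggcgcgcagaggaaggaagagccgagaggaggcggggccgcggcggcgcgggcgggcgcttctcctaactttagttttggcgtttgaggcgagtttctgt
AMOT: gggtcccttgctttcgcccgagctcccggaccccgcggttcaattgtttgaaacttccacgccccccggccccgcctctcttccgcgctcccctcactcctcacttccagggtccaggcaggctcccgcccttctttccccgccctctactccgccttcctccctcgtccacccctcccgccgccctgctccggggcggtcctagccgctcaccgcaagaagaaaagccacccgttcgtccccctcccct
The CCN2 window held 3 copies, beginning 169, 104 and 95 bases before the start. In ANKRD1 there were 2 copies, at 220 and 128 bases. YAP1 had 1 at 162 bases. A second start of AMOTL2 had 1, read as CATTCC, at 69 bases. No copy was found in the windows of AMOT, WWTR1 and TEAD2. RefSeq windows matched 7 of the 10 genes with 10 windows in all, and TEAD1, TEAD4 and CCN1 had no match. Of 35116 windows of the same length, 4175 held the letters on either strand (11.9%), 330 held at least 2 copies (0.94%) and 29 held at least 3 (0.0826%). The letters CAGGTG or CACCTG, the E-box bound by Snail factors, occurred in 1 of these windows, that of ANKRD1 (CACCTG, between its second TEAD motif and the start), and in 17.5% of all windows. The letters TGANTCA, a loose form of the AP-1 motif with any base at N, also occurred only in ANKRD1 among them. The match was TGATTCA at 195 bases, and 6.57% of all windows held such letters. The 3 motifs share no letters in these windows. A match describes the sequence and does not show that a factor was bound.

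Against WT, 9 of the 10 genes passed the test in the SNAI1-KO libraries, meaning a Benjamini-Hochberg adjusted p below 0.05 in edgeR's quasi-likelihood test, where 63.5% of all 19631 genes tested passed. Of these, 7 were lower (YAP1, WWTR1, TEAD1, CCN1, CCN2, ANKRD1 and AMOTL2) and 2 were higher (TEAD4 and AMOT), where 32.5% of all genes passed lower and 31% higher. A call additionally required the log2 fold change to reach 2 in either direction. It was met by 7 genes, 6 lower and 1 higher, where 26.9% of all genes tested were called, 14.3% lower and 12.6% higher. The median log2 fold change of the 10 genes was -2.22, and that of all genes tested was -0.0040. In fits of each clone alone, 7 of the 10 were called in CS16 (27.1% of all genes tested) and 6 in CS19 (26.3%), with AMOT again the only one called higher (11.8% and 12% of all genes tested) and the others lower (15.3% and 14.4%). The test was passed by 9 of the 10 in CS16 (55% of all genes) and by 9 in CS19 (52.4%), in each case 7 lower (28.3% and 26.4%) and 2 higher (26.7% and 26.1%). Both clones were compared with the same 3 WT libraries, so their agreement is not independent. All 10 genes were tested in every comparison, and AMOT entered the comparisons with WT only through its counts in the clones. The plot of levels by library shows where WT and clone libraries overlap, as for TEAD2. The share of all genes without such overlap was not counted. Levels in these cultures are per library, and fewer expressing cells cannot be told apart from less RNA per cell.

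**Figure D1:**
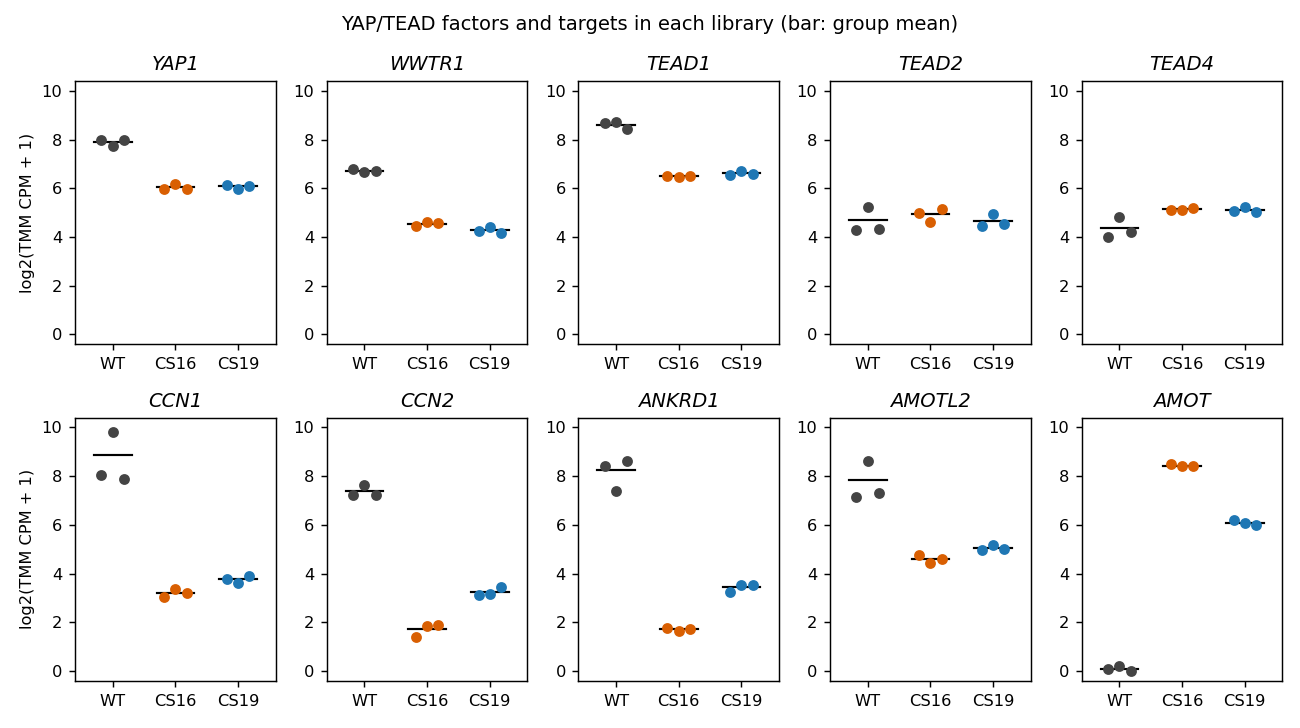
Levels of the 10 genes in each library, as log2(CPM + 1) after TMM scaling, with 1 point per library and a bar at the group mean (n = 3 for WT, CS16 and CS19). WT lies above both clones for YAP1, WWTR1, TEAD1, CCN1, CCN2, ANKRD1 and AMOTL2, and below them for TEAD4 and AMOT. For TEAD2, WT-1 and WT-3 lie below every clone library and WT-2 above every one.

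YAP1 (chr11:102110447-102233424, plus strand) had levels of 250.1, 212 and 250.5 CPM in WT. In CS16 it had 62.4, 70.7 and 60.9 CPM and in CS19 69.2, 62.4 and 67.7 CPM. No clone library reached a WT library. The difference between SNAI1-KO and WT was -1.86 on the log2 scale (SE 0.12, adjusted p = 1.07e-07), 3.62-fold lower, which missed the fold cut-off of a call. WWTR1 (chr3:149517235-149736714, minus strand), which encodes TAZ, had 108, 102 and 102 CPM in WT against 20.98, 23.4 and 22.7 in CS16 and 18.1, 20.2 and 16.7 in CS19. Its log2 difference was -2.36 (SE 0.14, adjusted p = 5.00e-08), 5.12-fold lower. Both coactivators thus fell in both clones. On the TPM scale, which divides by exon length and so allows genes to be set side by side, YAP1 made up 75.0% ± 1.5 (SD, n = 3) of YAP1 plus WWTR1 in WT, 79.3% ± 1.1 in CS16 and 82.7% ± 2.1 in CS19. Their summed level was 161 ± 19.7 TPM in WT, 40.1 ± 3.16 in CS16 and 38.6 ± 3.55 in CS19.

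Among the TEAD factors, which carry the DNA-binding domain of the complex, TEAD1 was lower in the clones and TEAD4 higher. TEAD1 (chr11:12674421-12944737, plus strand) had 412, 418 and 341 CPM in WT, 90.6, 86.3 and 89.3 in CS16, and 92.6, 102 and 94.3 in CS19. The log2 difference from WT was -2.08 (SE 0.12, adjusted p = 5.23e-08), and the groups were far apart. It was called in CS16 at -2.11 and lay just short of the cut-off in CS19 at -1.98. TEAD4 (chr12:2959330-3040676, plus strand) had 14.9, 27.0 and 17.2 CPM in WT, 33.2, 33.3 and 35.7 in CS16, and 32.3, 36.2 and 32.0 in CS19. WT was lower than every clone library, with WT-2 the nearest. The log2 difference was 0.78 (SE 0.19, adjusted p = 0.00382), 1.72-fold higher. In each clone alone TEAD4 passed narrowly, at 0.82 in CS16 (SE 0.26, adjusted p = 0.0297) and 0.80 in CS19 (SE 0.26, adjusted p = 0.0341), and it no longer passed when any 1 library other than WT-2 was left out, with adjusted p from 0.0643 to 0.103 in edgeR. Without WT-2 the difference of SNAI1-KO from WT was 1.07 (adjusted p = 4.68e-06).

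TEAD2 (chr19:49340595-49362457, minus strand) did not pass the test. Its levels were 18.8, 36.7 and 19.0 CPM in WT, 30.4, 23.7 and 34.9 in CS16, and 20.8, 29.9 and 22.4 in CS19. The groups overlapped through WT-2, which was above every clone library, while WT-1 and WT-3 were below every one. The log2 difference between SNAI1-KO and WT was 0.12 (SE 0.25, adjusted p = 0.689). Without WT-2 it was 0.51 and passed the test of edgeR (adjusted p = 0.0339), as it did in CS16 (0.65, adjusted p = 0.000571) and in CS19 (0.38, adjusted p = 0.0179), so the outcome for TEAD2 depends on that library. TEAD3, the remaining paralogue, had 39.0, 94.0 and 36.9 CPM in WT and between 5.49 and 8.37 in the clones, with a log2 difference of -3.02 (SE 0.27, adjusted p = 2.14e-06) and of -2.45 without WT-2.

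Shares of the TEAD transcripts shifted with these differences. In TPM, TEAD1 made up 52.2% ± 9.6 (SD, n = 3) of the family in WT, 23.5% ± 1.4 in CS16 and 26.3% ± 1.1 in CS19. TEAD4 went from 12.0% ± 1.5 in WT to 42.5% ± 2.3 in CS16 and 42.9% ± 1.3 in CS19. TEAD2 made up 11.3% ± 1.6, 28.0% ± 3.3 and 23.6% ± 2.4 in the same order, and TEAD3 24.5% ± 7.2, 5.94% ± 0.60 and 7.18% ± 0.12. The leading paralogue was therefore TEAD1 in every WT library and TEAD4 in every clone library. The summed family level was 235 ± 82.7 TPM in WT, 110.7 ± 19.7 in CS16 and 105 ± 19.2 in CS19. A share rises when other members fall, and no test was made on shares.

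**Figure D2:**
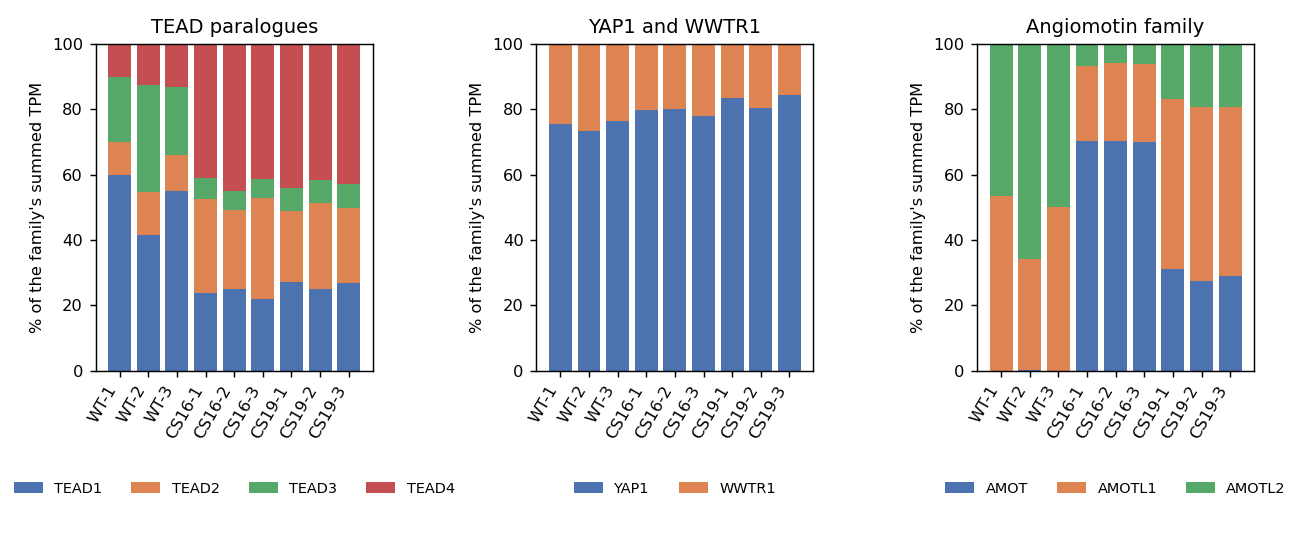
Share of each paralogue in the summed TPM of its family, in percent, for each of the 9 libraries (stacked bars, left: TEAD1 to TEAD4; middle: YAP1 and WWTR1; right: angiomotins). TEAD4 takes 40.9% to 45.1% of the TEAD transcripts in the clones and 10.2% to 13.1% in WT, and AMOT takes 70.0% to 70.4% of the angiomotin transcripts in CS16 and 27.6% to 31.0% in CS19.

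The secreted targets CCN1 and CCN2 and the nuclear and sarcomeric ankyrin-repeat protein gene ANKRD1 had the deepest falls of the 10 genes. CCN1 (chr1:85580761-85584589, plus strand), also known as CYR61, is a matricellular protein of the CCN family. It had 265, 896 and 237 CPM in WT, 7.16, 9.45 and 8.15 in CS16, and 12.6, 11.1 and 14.1 in CS19. WT-2 was 3.57 times the mean of WT-1 and WT-3, and all WT libraries were far above the clones. The log2 difference was -5.48 (SE 0.41, adjusted p = 3.94e-07), 44.6-fold lower, and -4.59 without WT-2.

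CCN2 (chr6:131948176-131951372, minus strand), the connective tissue growth factor whose promoter window held 3 TEAD motifs, had 148, 198 and 151 CPM in WT. It had 1.67, 2.58 and 2.74 CPM in CS16 and 7.73, 8.02 and 9.88 in CS19. All 3 groups were separate. The log2 difference between SNAI1-KO and WT was -4.92 (SE 0.48, adjusted p = 4.17e-06), and in the single clones it was -6.11 (SE 0.30) in CS16 and -4.24 (SE 0.23) in CS19. ANKRD1 (chr10:90912096-90921087, minus strand), with 2 TEAD motifs, had 345, 168 and 389 CPM in WT, 2.45, 2.15 and 2.31 in CS16, and 8.41, 10.5 and 10.6 in CS19. Here WT-2 was the lowest WT library, at 0.458 times the mean of the other WT libraries, whereas it was the highest for CCN1, CCN2 and AMOTL2. The log2 difference was -5.62 (SE 0.56, adjusted p = 4.87e-06) over both clones, -6.99 (SE 0.40) in CS16 and -4.89 (SE 0.37) in CS19.

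AMOTL2 and AMOT, paralogues that both bind YAP, went in opposite directions. AMOTL2 (chr3:134355347-134375479, minus strand) had 142, 389 and 158 CPM in WT, 26.0, 20.7 and 23.1 in CS16, and 30.1, 35.3 and 31.6 in CS19. Its log2 difference was -3.05 (SE 0.29, adjusted p = 3.52e-06), and -2.44 without WT-2, which was 2.59 times the mean of the other WT libraries. AMOT (chrX:112774503-112840831, minus strand) was all but absent from WT, with 1, 3 and 0 counts. It had 7369, 7080 and 8520 counts in CS16, or 361, 338 and 339 CPM, and 1596, 1518 and 1906 counts in CS19, or 72.5, 65.8 and 62.4 CPM. The ratio of CS16 to WT was 4944 with a 95% exact interval of 1931 to 18148, and that of CS19 to WT was 950.3 (371 to 3489), from 4 WT counts in all, where the intervals cover counting error only. AMOT entered edgeR's quasi-likelihood test against WT only through the clone libraries, so no p is given. Its fitted size depends on the prior count and is not given either.

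The third angiomotin, AMOTL1, fell by 0.96 on the log2 scale (SE 0.13, adjusted p = 4.16e-05), with 245 to 314 CPM in WT and 132 to 149 in the clones. In TPM, the WT angiomotin transcripts were AMOTL2 (54.1% ± 10.2, SD, n = 3) and AMOTL1 (45.9% ± 10.2). In CS16, AMOT made up 70.2% ± 0.2 and AMOTL2 6.20% ± 0.49, while in CS19 AMOTL1 led with 52.3% ± 0.6, before AMOT with 29.1% ± 1.7 and AMOTL2 with 18.5% ± 1.4. The summed angiomotin level was 204 ± 96.8 TPM in WT, 181 ± 29.98 in CS16 and 82.2 ± 12.1 in CS19. The ranges of WT and CS16 overlapped.

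The order of levels per length turned over between WT and the clones. In WT the targets ANKRD1, CCN1 and CCN2 came first, with ANKRD1 at 529 ± 182 TPM, CCN1 at 420 ± 361 and CCN2 at 229 ± 57.4 (SD, n = 3), and their ranges overlapped from each to the next. YAP1 (121 ± 14.6 TPM), TEAD1 (119 ± 26.5) and AMOTL2 (116.6 ± 78.1), itself a target, followed and overlapped each other. WWTR1 (40.2 ± 5.72 TPM), TEAD4 (28.1 ± 11.0) and TEAD2 (27.3 ± 13.2) came next, also overlapping, and AMOT was last at 0.0298 TPM. In CS16, AMOT led at 127 ± 20.99 TPM, ahead of TEAD4 at 46.8 ± 6.04, and neither overlapped the gene after it. YAP1 (31.8 ± 2.69 TPM), TEAD2 (31.4 ± 8.44) and TEAD1 (26.0 ± 3.95) formed an overlapping middle, while CCN1 (6.89 ± 0.07), ANKRD1 (4.04 ± 0.78) and CCN2 (3.06 ± 0.57) were last. In CS19, TEAD4 led at 44.9 ± 7.19 TPM and WWTR1 was last at 6.72 ± 1.28, below CCN2 (11.0 ± 0.66) and CCN1 (10.3 ± 0.33), which overlapped each other.

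Compared directly, the clones differed in 6 of the 10 genes at an adjusted p below 0.05 in edgeR, where 27.9% of the 17538 genes tested did. Calls numbered 2, where 1.12% of all genes tested were called, 0.627% higher and 0.496% lower in CS16. Of the 6, 2 were higher in CS16 (14.9% of all genes) and 4 lower (13%). AMOT was higher in CS16 than in CS19 by 2.37 (SE 0.08, adjusted p = 3.85e-12), 5.15-fold, and ANKRD1 was lower, at -2.10 (SE 0.15, adjusted p = 6.37e-08), 4.29-fold. CCN2 was 3.66-fold lower in CS16, at -1.87 (SE 0.18, adjusted p = 1.29e-06). CCN1 at -0.62 (SE 0.13, adjusted p = 0.00179) and AMOTL2 at -0.48 (SE 0.10, adjusted p = 0.00138) were also lower in CS16. The 4 targets were thus all lower in CS16 than in CS19. WWTR1 was higher in CS16 by 0.28 (SE 0.10, adjusted p = 0.0376). The differences in CCN1, AMOTL2 and WWTR1 did not pass when all 3 groups shared 1 fit, with edgeR adjusted p of 0.683, 0.666 and 0.413, a fit whose estimate of spread also draws on the WT libraries. Those in AMOT, ANKRD1 and CCN2 did. The difference in WWTR1 also no longer passed when CS16-2, CS16-3, CS19-1 or CS19-3 was left out (edgeR adjusted p from 0.0685 to 0.187), and CCN2 reached the fold cut-off, at -2.01, without CS16-3. The factors YAP1 (-0.05, SE 0.08), TEAD1 (-0.12, SE 0.06), TEAD2 (0.29, SE 0.16) and TEAD4 (0.02, SE 0.08) did not pass, although TEAD2 did in edgeR without CS16-2 (0.43, adjusted p = 0.0143) or CS19-2 (0.46, adjusted p = 0.0185).

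**Figure D3:**
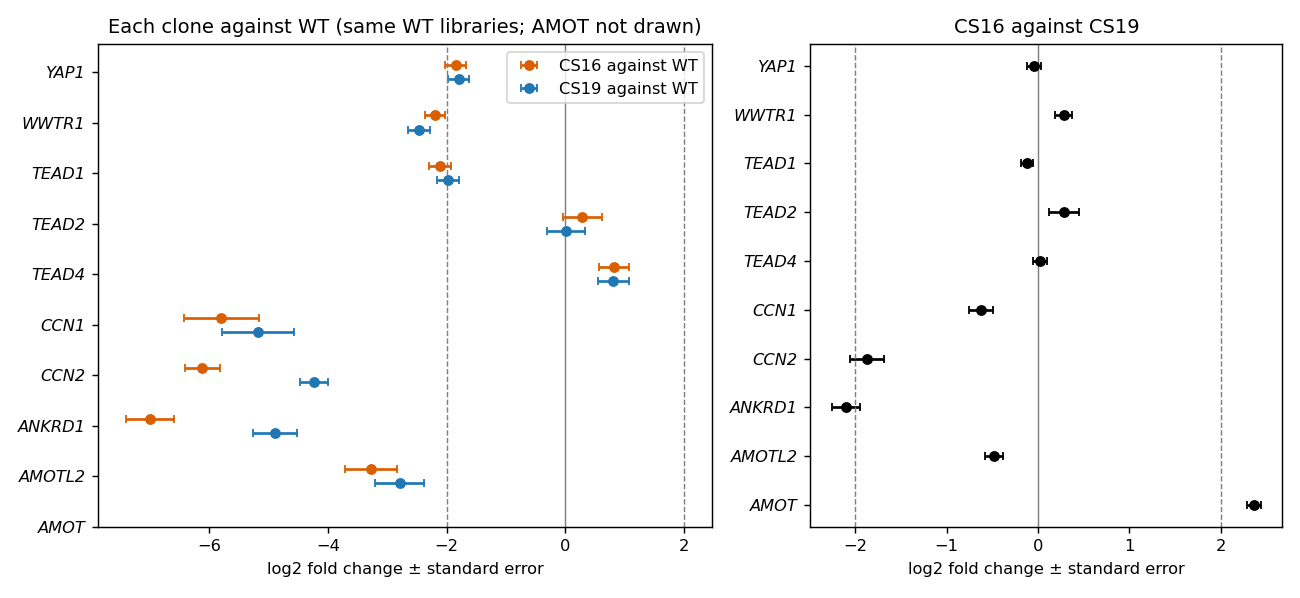
Fitted log2 fold changes with standard errors for each clone against the same 3 WT libraries (left, AMOT left out because WT had 4 counts in all) and for CS16 against CS19 (right). Dashed lines mark the fold cut-off of 2 on the log2 scale. ANKRD1 and CCN2 lie lower in CS16 than in CS19, and YAP1, TEAD1 and TEAD4 lie close to 0 in the direct comparison.

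Other genes reported as YAP/TEAD targets were lower in the clones as well. Their list, like those of the next paragraphs, was drawn up with earlier results of these data known. Its counts are therefore not independent of those results. All 18 on the list passed the test in SNAI1-KO against WT (63.5% of all genes tested), 17 lower and 1 higher, and 15 were called lower and 0 higher, where 14.3% of all genes tested were called lower. The median log2 fold change was -3.35, against -0.0040 over all genes tested. Without WT-2 there were 13 calls, with ASAP1 at -1.88 and ARHGEF17 at -1.93 short of the cut-off. The share of all genes called without WT-2 is not given here. The receptor tyrosine kinase gene AXL had 27031 to 42415 counts in WT and 2 to 12 in the clones. For NT5E, the ectonucleotidase CD73, these were 7038 to 12061 and 6 to 12. IGFBP3, which binds insulin-like growth factors, had 916 to 1156 counts in WT and 0 to 5 in the clones. AXL, NT5E and IGFBP3 entered the test only through the WT libraries, so they could hardly fail to count as lower. The membrane repair gene MYOF fell from 18043 to 21507 counts in WT to 102 to 140, a log2 difference of -7.67 (SE 0.18, adjusted p = 1.70e-10). FOXF2, a forkhead factor of mesenchyme, was the exception, with a log2 difference of 1.14 (SE 0.25, adjusted p = 0.00209). Between the clones 15 of the targets were tested and 4 passed, near the 27.9% of all genes, with 3 higher in CS16 (14.9% of all genes) and 1 lower (13%). RefSeq windows were found for 13 of the 18, with 14 windows in all. The TEAD letters occurred in 5 of these genes (AXL, FOXF2, NUAK2, PTPN14 and TGFB2), and in 11.9% of all windows. FOXF2, the target that rose, was thus among them.

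Regulators upstream of the Hippo kinases moved in both directions. Of 18 listed, 17 were tested and all of these passed in SNAI1-KO against WT (63.5% of all genes tested), 14 lower (32.5%) and 3 higher (31%). Calls numbered 8 (26.9% of all genes tested), with 7 lower (14.3%) and 1 higher (12.6%). Without WT-2, DCHS1 also reached the cut-off, at 2.45 against 1.75 with it. NF2, encoding merlin, which activates the pathway at the membrane, was the one called higher, with 18.3, 38.8 and 18.1 CPM in WT, 157 to 172 in CS16 and 137 to 158 in CS19 (log2 difference 2.63, SE 0.26, adjusted p = 4.97e-06). WWC3, of the KIBRA family that binds LATS kinases, had 3094 to 6633 counts in WT and 0 to 2 in the clones. WWC3 entered the test only through the WT libraries, so it could hardly fail to count as lower. FAT1, an atypical cadherin, had 25758 to 30951 counts in WT, 449 to 604 in CS16 and 38 to 49 in CS19. It was the only gene of this list called between the clones, at 3.76 (SE 0.14, adjusted p = 1.61e-11). AJUBA, a LIM protein that restrains LATS, fell by 3.73 (SE 0.17, adjusted p = 8.17e-09), and PTPN14, a phosphatase that binds YAP, fell by 3.16 (SE 0.19, adjusted p = 6.91e-08). CRB3 was too low to be tested.

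In the kinase core, 8 of 13 genes passed in SNAI1-KO against WT, a share near that of all genes tested (63.5%), 7 lower (32.5%) and 1 higher (31%). Of the 13, 2 were called, both lower, where 14.3% of all genes were. The calls were STK38, a kinase of the NDR family, at -2.66 (SE 0.14, adjusted p = 2.02e-08) and LATS2, the kinase that phosphorylates YAP and TAZ and is also a target of theirs, at -2.63 (SE 0.24, adjusted p = 2.02e-06). Its paralogue LATS1 was at -0.27 (SE 0.20, adjusted p = 0.258). STK3 and STK4, which encode the MST kinases, fell by 0.71 and 0.39 on the log2 scale, and their scaffold SAV1 was at 0.02 and did not pass. MAP4K4, TAOK1 and TAOK3, which act above or beside the MST kinases, fell by 1.66, 0.55 and 1.58. STK38L rose by 1.32 (SE 0.25, adjusted p = 0.000715). MOB1A and MOB1B, whose products activate LATS kinases, and the kinase gene TAOK2 did not pass, at -0.28, -0.51 and 0.49. Without WT-2 they passed in edgeR, at -0.68 (adjusted p = 9.52e-05), -0.80 (adjusted p = 9.60e-06) and 1.01 (adjusted p = 9.91e-07), so 11 of the 13 passed, 9 lower and 2 higher, and their outcome depends on that library. Between the clones LATS1 and LATS2 were higher in CS16, by 0.60 (SE 0.08, adjusted p = 1.81e-05) and 0.69 (SE 0.11, adjusted p = 0.000142), and TAOK3 by 0.31 (adjusted p = 0.0226).

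**Figure D4:**
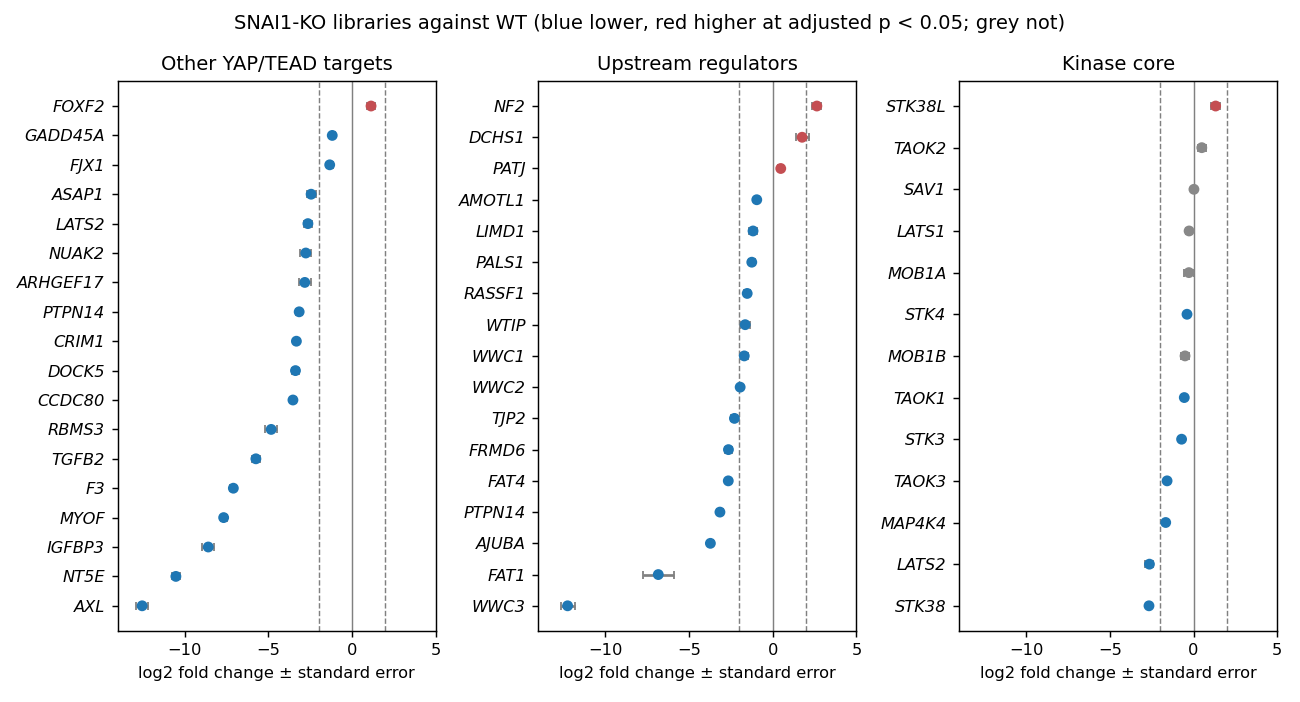
Fitted log2 fold changes with standard errors of SNAI1-KO (n = 6 libraries, 3 of each clone) against WT (n = 3). Shown are other YAP/TEAD targets (18 genes), upstream regulators (17 tested) and the kinase core (13 genes), ordered by size. Dashed lines mark a log2 fold change of 2. Of the targets, 17 lie below 0 and FOXF2 above, whereas NF2 is the upstream gene beyond the upper line and most of the kinase core lies between the lines.

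Of the other TEAD cofactors, WBP2, which binds YAP and TAZ, fell by 0.76 (SE 0.17, adjusted p = 0.00188). VGLL3 at 0.45 and VGLL4 at -0.35, members of the vestigial-like family that compete with YAP for TEAD, did not pass. VGLL2, of the same family, had low counts, with 1, 5 and 0 in WT, 27, 21 and 58 in CS16, and 10, 14 and 20 in CS19. It entered the test only through the clone libraries, so no p is given. VGLL1 was not tested. Among the remaining CCN genes, CCN3 had 176, 91 and 206 counts in WT and 0 to 8 in the clones. It entered the test only through the WT libraries, so no p is given. CCN6 had 0, 0 and 2 counts in WT and 6 to 29 in the clones. As with VGLL2, CCN6 entered the test of both clones against WT only through the clone libraries, and it was not tested in either clone alone. CCN4 and CCN5 were too low to be tested.

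Genes of any kind were ranked by how closely their log2(CPM + 1) followed YAP1, CCN1 and CCN2 over the 9 libraries, among 15590 genes with a mean of at least 1 CPM. Nearest to YAP1 were CCNA1 (Pearson r of 0.999) and SERPINB1 (0.999), nearest to CCN1 were USP4 (0.999) and TGFB1I1 (0.999), and nearest to CCN2 were MATN2 (0.999) and NIBAN1 (0.997). The libraries fall into 3 groups, so these values mostly describe a shared pattern of group levels and carry no p. For CCN1, where WT-2 was 3.57 times the mean of WT-1 and WT-3, they also take in that spread within WT. For MATN2 the mean level was 111.4 CPM in WT, 1.79 in CS16 and 7.10 in CS19, the same order as for CCN2. USP4 had 64.2, 18.7 and 20.9 CPM in the same groups.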

How the data were processed

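RNA of 9 libraries (3 WT, 3 CS16, 3 CS19) was depleted of ribosomal RNA before stranded, paired-end sequencing. Per the submitters' processing notes and the file headers, the authors trimmed reads (Trimmomatic 0.36), aligned them to GRCh38 (STAR 2.7.2b) and counted pairs with featureCounts (Subread 2.0.0) on gencode release 38 at a mapping quality of at least 30. The deposited values were raw counts per gene. Strand was not used, so reads of overlapping genes on opposite strands cannot be told apart. This touches 639 exon bases of YAP1, 756 of WWTR1, 319 of TEAD2 and 195 of CCN2, and the overlapping genes had at most 92 counts. Counts carried no molecular identifiers, and 3 counts, the floor used, equal 0.0982 to 0.171 CPM. Gene identifiers were matched to symbols for 60463 of 60708 genes, and 41910 had a count.

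Genes passing filterByExpr were scaled by TMM and tested with edgeR 4.0.16 (quasi-likelihood, Benjamini-Hochberg over all genes tested, R 4.3.3, limma 3.58.1). SE was the log2 fold change divided by the root of F. TPM used the exon lengths in the files. Alternatives were DESeq2 1.42.0, other scalings and filters, other cut-offs, a replicate block, a shared fit and each library left out. The list counts and list genes without WT-2 were chosen after seeing the data. On simulated data with 200 changed genes, edgeR and DESeq2 each recovered 200 in SNAI1-KO against WT (19284 genes), with 0 false calls. The simulated log2 change was 3, above the cut-off, with the same dispersion for all genes and no library set apart like WT-2. It checks the code and does not measure error rates in these data. Tables and plots were made in Python 3.11.15 (matplotlib 3.10.9, scipy 1.17.1, numpy 2.4.6 and pandas 2.3.3).

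The 10 genes and all lists were chosen with earlier results of these data known. Named were the 10 genes, TEAD3, AMOTL1, the kinase core, TEAD cofactors and CCN genes, the 4 largest folds in each direction among calls of SNAI1-KO against WT in the upstream and target lists with any call between the clones, and the 2 genes most like YAP1, CCN1 and CCN2. LATS2 and PTPN14 are in 2 lists each. ASAP1, ARHGEF17 and DCHS1 were named after their values were seen. Reads, exons and proteins were not analysed here.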

Additional observations from a re-analysis of the deposited data

Results flagged for a closer look

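In the direct comparison of the clones 6 of the 10 genes passed edgeR's quasi-likelihood test with 3 libraries each, where 27.9% of the 17538 genes tested passed. Values are log2 fold changes of CS16 against CS19. AMOT differed by 2.37, with every CS16 library above every CS19 library. ANKRD1 differed by -2.10 and CCN2 by -1.87, with every CS16 library below every CS19 library. CCN1 differed by -0.62, AMOTL2 by -0.48 and WWTR1 by 0.28, and these differences did not pass when all 3 groups shared 1 fit. The share of all genes without overlap between the clones was not counted. Within the SNAI1-KO group of 6 libraries, no library stood far from the others for any of the 10 genes by Dixon's criterion (critical value 0.625). That criterion divides by the range over both clones. Where the clones lay far apart, as for AMOT, ANKRD1 and CCN2, it could hardly single out a library.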

How the results depend on the processing

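The calls among the 10 genes numbered 7 in SNAI1-KO against WT, 7 in CS16 against WT, 6 in CS19 against WT and 2 between the clones. Without any 1 library they ranged from 7 to 7, from 7 to 7, from 6 to 7 and from 2 to 3, and over all genes calls ranged from 5165 to 5961, from 5174 to 5816, from 5165 to 5737 and from 224 to 251. In the same order, calls over all genes were 8626, 7564, 7503 and 350 with no filter on low counts, 12466, 10237, 9926 and 4893 with no fold cut-off, and 9243, 8535, 8277 and 830 with a log2 fold change of at least 1. With no fold cut-off 6 of the 10 genes were called between the clones. With no filter 6 were called in SNAI1-KO against WT. DESeq2, RLE and the shared fit gave 7 calls in CS19 against WT, where TEAD1 lies near the cut-off. Without WT-2 the lists gave 13 calls among other targets, 9 upstream, 2 in the kinase core and 2 among cofactors in SNAI1-KO against WT, 12, 9, 2 and 2 in CS16, and 13, 10, 2 and 2 in CS19. Calls over all genes in these fits lie within the ranges given above, and their shares are not given here. Replicate numbers did not pair the libraries, since deviations of same-numbered libraries correlated between -0.39 and 0.33, and with the replicate block calls over all genes were 5219, 4938, 4916 and 200. Under the block TEAD4 in CS16 against WT (adjusted p = 0.0510) and WWTR1 between the clones (adjusted p = 0.103) no longer passed in edgeR. WWTR1 between the clones also no longer passed with upper-quartile scaling (0.0630) and without 4 single libraries. Of the other list genes in SNAI1-KO against WT without WT-2, SAV1 turned to -0.12 and did not pass either way. Of the single-gene values of the 10 genes under alternatives, 553 kept direction and side of the threshold, 20 lost and 6 gained it, and 11 changed sign, all small. TEAD2 in SNAI1-KO against WT was -0.042 without WT-1, -0.012 without WT-3 and at most 0.51 without WT-2. TEAD2 in CS19 against WT was -0.012 with DESeq2, -0.011 with RLE, -0.027 in the shared fit, -0.18 without WT-1, -0.14 without WT-3, -0.14 without CS19-2 and at most 0.38 without WT-2. TEAD4 between the clones was -0.0055 with upper-quartile scaling, -0.011 without CS16-3, -0.0021 without CS19-3 and at most 0.087 without CS19-2. The causes were not tested. AMOT in WT, at 0 to 3 counts, is limited by depth.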
